A study of Mus musculus with 8 samples.

Results

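The genes described here encode the enzymes of cholesterol and fatty acid synthesis and the proteins that sense sterols. They are 34 of the 55471 genes in the count table, chosen by symbol from a list of pathway members, and each symbol had 1 row. They comprise 18 enzymes of the sterol pathway, 6 genes for sterol sensing and transport, and 10 genes of fatty acid synthesis, elongation and desaturation. All 34 passed the filter on low counts, with 36 to 24485 counts per library and a median of 1191.

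RNA was sequenced from SV-LECs, a mouse lymphatic endothelial cell line that was derived from mesenteric adventitial tissue and immortalized with SV40, a modification that both groups carry. The line was routinely cultured in high-glucose DMEM with fetal bovine serum, a source of lipoproteins. For conditioned medium the study used a low serum concentration, and its Methods do not say which serum level the RNA samples had. The untreated group held 4 libraries, and the other group held 4 libraries of cells exposed to 10 ng/ml TGFβ1 for 72 h. The Methods of the study describe the 4 samples of a group as technical replicates of 1 line, so errors and p-values cover technical spread and not the variation between independent experiments. Library totals lay between 18952504 and 26386941 counts. Levels are given as CPM, the counts of a gene scaled to a common library size after TMM normalization. Of the 6 lymphatic markers on a list, only Flt4 and Pdpn had enough counts to be tested, while Prox1, Lyve1 and Reln had at most 2, 3 and 2 counts in any library and Ccl21a had 0. Among 8 endothelial markers, Kdr, Tek, Egfl7 and Esam were tested, Pecam1 and Cdh5 reached at most 5 and 2 counts, and Tie1 stood at 0 in every library.

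Cells build cholesterol from acetyl-CoA through mevalonate, farnesyl diphosphate, squalene and lanosterol. When sterol in the endoplasmic reticulum is low, the escort protein SCAP carries SREBP transcription factors to the Golgi, where they are cut and released to activate genes of sterol and fatty acid synthesis. When sterol is plentiful, the INSIG proteins hold the SCAP-SREBP complex back. Fatty acid synthesis draws on the same acetyl-CoA and needs NADPH, and its products are lengthened and desaturated by separate enzymes.

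In TGFβ1-treated SV-LECs, 26 of the 34 genes were lower and 6 were higher than in untreated cells at a false discovery rate (FDR) under 0.05 in edgeR's likelihood ratio test. Of all 13818 genes tested, 38.0% were lower and 37.6% were higher by the same rule, together 75.6%, so the share of lower genes among the members was above the background and the share of higher genes was below it. The members were chosen with earlier results of these data known, so this comparison is a description and not a test. Srebf1 and Me1 did not pass the test. The same 26 genes had every treated library below every untreated library and the same 6 had every treated library above, against 35.1% and 34.7% of all genes tested, or 69.8% in either direction. Since most of the transcriptome passed an FDR of 0.05, a stricter test against a fold change of 1.5 (edgeR's glmTreat) was also applied. By this test 14 members were lower and 1 was higher, against 10.6% and 14.5% of all genes tested, or 25.1% in either direction. Against a bound of 1.2-fold, 23 members were lower and 4 were higher (23.8% and 25.9% of all genes tested), and against a bound of 2-fold, 6 were lower and 0 higher (4.40% and 7.83%). The median log2 fold change of the members was -0.53, and that of all genes tested was -0.01. A total of 13 members fell within the lowest 10% of all log2 fold changes. In bulk RNA a lower level per cell and fewer cells that express a gene cannot be told apart.

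**Figure D1:**
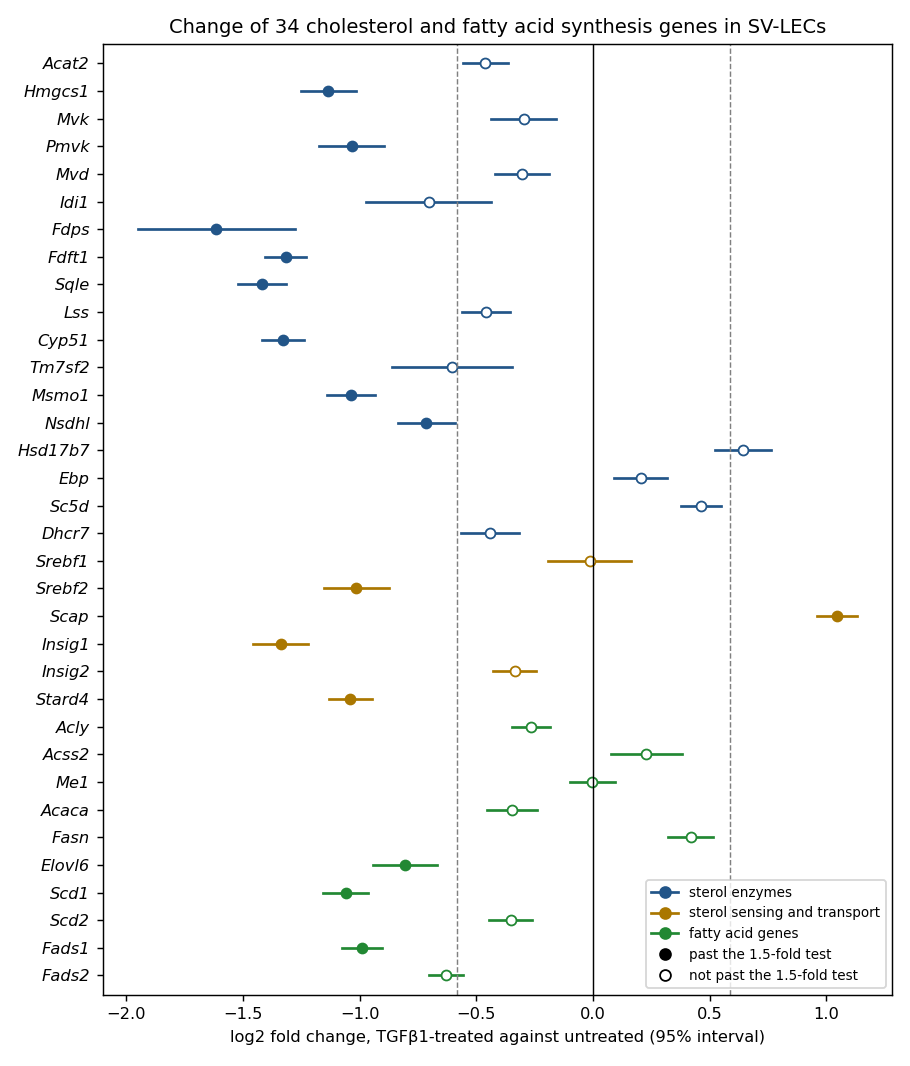
Log2 fold change of each of the 34 genes, TGFβ1-treated against untreated SV-LECs, with the 95% interval from the edgeR fit, coloured by group of genes. Filled points passed the test against a fold of 1.5, whose bounds are the dashed lines. Most points lie left of 0, and Scap is the filled point on the right.

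Promoters of the members were examined for the sequences that the pathway's regulators are known to bind. RefSeq windows on GRCm38.p6, from 250 bases before to 50 bases after the start of a gene, were matched for 27 of the 34 members, the others being Fdps, Fdft1, Sqle, Stard4, Scd1, Scd2 and Fads1. Both strands were searched for TCACNCCAC, which is 1 form of the sterol regulatory element bound by SREBPs, for CCAAT, the core bound by the SREBP partner NF-Y (written ATTGG on the other strand), for GGGCGG, the core bound by Sp1, and for the E-box CACGTG, which reads the same on both strands. CCAAT was present in 14 of 15 sterol enzyme promoters, with Acat2 as the exception, in 4 of 5 promoters of the sensing genes, with Scap as the exception, and in 4 of 7 promoters of the fatty acid genes, without Acaca, Elovl6 and Fads2. It was found in 43.4% of the tested genes that had a window and in 37.4% of all 32851 windows. GGGCGG was found in 14 of 15 sterol enzymes, 5 of 5 sensing genes and 4 of 7 fatty acid genes, against 69.7% of tested genes and 35.7% of windows. CACGTG was found in 5 of 27 members, against 11.6% of tested genes and 7.15% of windows. TCACNCCAC was found in 1 member, Hmgcs1, and in 1.39% of tested genes and 1.24% of windows. These counts describe letters in a window and not binding, and genes with several windows were counted if any window held the letters. The only window of Acaca, from chr11:84195188, lies well inside the gene, which starts at chr11:84129672, so its upstream promoter was not searched. The CCAAT matches of Me1 and Dhcr7 were likewise only in windows inside those genes.

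The 250 bases before the start are shown for 5 genes that moved in different ways, in lower case with matches to TCACNCCAC and CCAAT in capitals, 5′ to 3′ along the strand of the gene. Hmgcs1 (chr13:119690101-119690350, plus strand) and Msmo1 (chr8:64733579-64733828, minus strand) fell by more than 1 on the log2 scale. Mvk (chr5:114444019-114444268, plus strand) showed the smallest fall of the sterol enzymes that were lower. Hsd17b7 (chr1:169969206-169969455, minus strand) and Fasn (chr11:120824548-120824797, minus strand) rose. The match to TCACNCCAC in Hmgcs1 lies 137 to 129 bases before the start, and 3 ATTGG matches surround it. Mvk holds 5 matches to CCAAT, and the other 3 genes hold 3 each, of which a pair in Fasn overlaps within the run CCAATTGG.
Hmgcs1: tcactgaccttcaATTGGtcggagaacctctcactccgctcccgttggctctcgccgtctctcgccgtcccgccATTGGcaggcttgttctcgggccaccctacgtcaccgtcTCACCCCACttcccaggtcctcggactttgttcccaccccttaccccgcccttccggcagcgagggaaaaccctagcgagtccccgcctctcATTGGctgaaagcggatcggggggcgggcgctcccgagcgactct
Msmo1: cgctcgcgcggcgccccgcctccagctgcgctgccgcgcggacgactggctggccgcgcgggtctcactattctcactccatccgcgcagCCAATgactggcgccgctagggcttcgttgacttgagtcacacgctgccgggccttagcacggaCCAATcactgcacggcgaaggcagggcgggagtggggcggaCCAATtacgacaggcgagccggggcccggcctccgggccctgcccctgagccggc
Mvk: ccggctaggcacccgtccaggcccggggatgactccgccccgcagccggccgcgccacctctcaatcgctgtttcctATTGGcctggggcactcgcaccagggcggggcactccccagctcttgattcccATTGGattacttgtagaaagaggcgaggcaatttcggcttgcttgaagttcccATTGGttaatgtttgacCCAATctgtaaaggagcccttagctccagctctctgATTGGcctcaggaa
Hsd17b7: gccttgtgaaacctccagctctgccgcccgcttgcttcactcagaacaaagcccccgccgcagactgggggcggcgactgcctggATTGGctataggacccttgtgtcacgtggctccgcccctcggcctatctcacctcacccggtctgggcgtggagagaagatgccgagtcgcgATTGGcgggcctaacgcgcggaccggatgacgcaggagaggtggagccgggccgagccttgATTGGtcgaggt
Fasn: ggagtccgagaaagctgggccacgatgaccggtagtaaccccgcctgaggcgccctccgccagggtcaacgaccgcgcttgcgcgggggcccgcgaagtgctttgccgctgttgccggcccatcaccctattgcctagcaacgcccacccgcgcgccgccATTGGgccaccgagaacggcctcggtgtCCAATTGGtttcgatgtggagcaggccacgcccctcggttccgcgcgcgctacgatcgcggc
All 5 of these windows hold CCAAT, so they give no comparison with promoters that lack it.

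Every enzyme on the way from acetoacetyl-CoA to lanosterol was lower after TGFβ1, and the later enzymes were mixed. The 10 enzymes from Acat2 to Lss had a median log2 fold change of -0.87, and 5 of them were lower by more than 1.5-fold in the threshold test. Of the 8 enzymes after lanosterol, 5 were lower and 3 were higher, with a median of -0.52, and 3 of the lower ones passed the threshold test. Over all 18 sterol enzymes the log2 fold changes ran from -1.61 to 0.64, with a median of -0.65. Among all genes tested 38.0% were lower and 37.6% higher, and 10.6% were lower past the threshold test.

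Hmgcs1, at chr13:119690379-119708260, makes HMG-CoA at the entry to the mevalonate pathway. Its level was 139, 136, 143 and 163 CPM in the 4 untreated libraries and 63.8, 65.1, 70.1 and 65.1 CPM in the treated libraries. The groups did not overlap, and the treated mean was 45.5% of the untreated mean. The log2 fold change was -1.14 (SE 0.060, FDR 1.79e-76 in edgeR). Acat2, which joins 2 acetyl-CoA units ahead of that step, changed less, from 50.9 ± 1.06 to 36.9 ± 1.01 CPM (mean ± SD, n = 4), a log2 fold change of -0.46.

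The mevalonate kinases and the decarboxylase that follow fell unequally. Pmvk, the phosphomevalonate kinase, stood at 22.1, 23.0, 22.7 and 22.3 CPM in untreated libraries and at 10.3, 10.9, 11.1 and 11.6 CPM in treated libraries. Each treated library was therefore below each untreated library, with a log2 fold change of -1.03 (SE 0.071, FDR 1.45e-48 in edgeR). Mvk, which acts just before Pmvk, and Mvd, which acts just after it, were lower by much smaller amounts, with log2 fold changes of -0.30 (SE 0.071) and -0.30 (SE 0.059), and neither passed the test against 1.5-fold. Idi1, the isomerase that makes dimethylallyl diphosphate, was measured at 8.19, 6.95, 8.30 and 8.27 CPM in untreated and 4.71, 3.60, 6.05 and 5.01 CPM in treated libraries. Its log2 fold change was -0.71 (SE 0.137), with FDRs of 4.99e-07 in the likelihood ratio test and 0.232 in the test against 1.5-fold in edgeR.

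The genes that lead from farnesyl diphosphate to the product of squalene epoxidase all fell past the test against 1.5-fold. Fdps, at chr3:89093588-89101959, makes farnesyl diphosphate. It had 146 to 162 counts per untreated library and 36 to 61 per treated library, the latter the lowest of the members. Its level was 7.23, 5.48, 6.73 and 8.22 CPM in untreated cells and 1.95, 2.97, 1.87 and 2.17 CPM in treated cells, a log2 fold change of -1.61 (SE 0.171, FDR 2.79e-21 in edgeR). This was the lowest log2 fold change of the 34 genes and had the largest error. Fdft1, the squalene synthase, was at 106, 108, 109 and 105 CPM in untreated cells and at 41.8, 42.9, 44.3 and 42.7 CPM in treated cells. The spread within each group was small beside this difference, and the log2 fold change was -1.32 (SE 0.045, FDR 4.14e-186 in edgeR).

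Sqle, at chr15:59315077-59331192, encodes squalene epoxidase, which adds the first oxygen on the sterol branch. It stood at 61.3, 61.4, 61.7 and 65.0 CPM in untreated and at 23.0, 23.3, 24.0 and 23.0 CPM in treated libraries. The treated mean was 37.4% of the untreated mean, and the log2 fold change was -1.42 (SE 0.053, FDR 1.26e-159 in edgeR). Lss, the cyclase that turns the product of Sqle into lanosterol, was lower only from 54.9 ± 1.91 to 39.9 ± 1.55 CPM, which is a log2 fold change of -0.46 that did not pass the test against 1.5-fold.

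**Figure D2:**
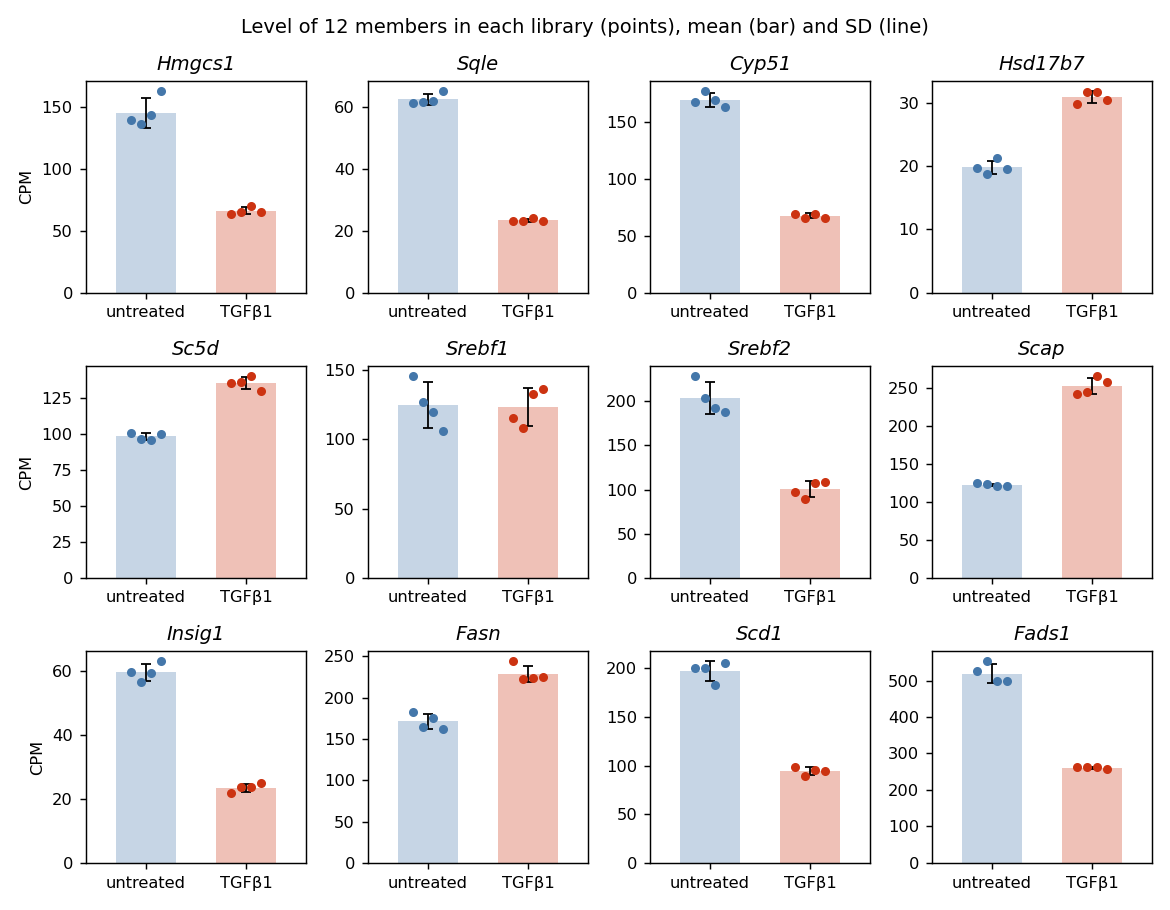
CPM in each of the 8 libraries for 12 of the genes, with bars for the mean and lines for the SD of 4 libraries per group, on axes that start at 0 and differ between panels. The groups overlap for Srebf1 and are apart for the other 11 genes. Hsd17b7, Sc5d, Scap and Fasn are higher after TGFβ1.

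After lanosterol, Cyp51, Msmo1, Nsdhl and Tm7sf2 fell. Cyp51, at chr5:4081145-4104746, removes the first methyl group. It was measured at 168, 178, 170 and 163 CPM in untreated and 69.7, 65.5, 69.6 and 66.0 CPM in treated libraries. The untreated libraries were all above the treated ones, with a log2 fold change of -1.33 (SE 0.046, FDR 8.46e-180 in edgeR). Msmo1, the oxidase that starts the removal of the remaining methyl groups, was at 161, 152, 164 and 174 CPM in untreated and at 79.0, 84.7, 76.7 and 77.2 CPM in treated libraries, a log2 fold change of -1.04 (SE 0.053, FDR 1.02e-84 in edgeR). Nsdhl, the dehydrogenase that acts with Msmo1, fell from 45.3 ± 3.08 to 27.6 ± 0.742 CPM, for a log2 fold change of -0.72. Its test against 1.5-fold gave an FDR of 0.0186, which became 0.0637 without untreated replicate 4, 0.0614 without TGFβ1 replicate 4 and 0.265 in DESeq2. Tm7sf2, a sterol reductase of the same stretch, was at 6.84 ± 1.12 and 4.47 ± 0.242 CPM, which is a log2 fold change of -0.60 (SE 0.132).

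Hsd17b7, Ebp and Sc5d moved against their neighbours. Hsd17b7 encodes the 3-ketosterol reductase that completes the reaction cycle of Msmo1 and Nsdhl. Its level was 19.7, 18.8, 21.3 and 19.6 CPM in untreated and 29.8, 31.8, 31.7 and 30.4 CPM in treated libraries, so that the groups were apart in the direction opposite to Msmo1 and Nsdhl. The log2 fold change was 0.64 (SE 0.061), with FDRs of 1.36e-25 in the likelihood ratio test and 0.211 in the test against 1.5-fold in edgeR. Sc5d, the desaturase that acts near the end of the pathway, was at 101, 96.5, 96.1 and 100.3 CPM in untreated and at 136, 136, 140.4 and 130.4 CPM in treated libraries. This gave a log2 fold change of 0.46 (SE 0.043, FDR 6.12e-26 in edgeR). Ebp, the isomerase just before Sc5d, rose from 28.7 ± 0.614 to 33.0 ± 2.00 CPM, for a log2 fold change of 0.20 (SE 0.058, FDR 8.31e-04 in edgeR). Dhcr7, the last reductase of 1 branch to cholesterol, was lower again, at 31.8 ± 1.55 and 23.5 ± 1.34 CPM, which is a log2 fold change of -0.44 (SE 0.063).

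Among the sensing genes, Srebf2, Insig1 and Stard4 fell and Scap rose, each past the test against 1.5-fold. Srebf2, at chr15:82147181-82205379, encodes SREBP2, the main activator of sterol genes. It was at 228, 204, 193 and 188 CPM in untreated and at 97.0, 89.4, 107 and 109 CPM in treated libraries. The lowest untreated library was well above the highest treated library, and the log2 fold change was -1.01 (SE 0.071, FDR 4.24e-44 in edgeR). Srebf1, which encodes SREBP1 and is tied more to fatty acid synthesis, was at 146, 127, 120 and 106 CPM in untreated and at 115, 109, 133 and 137 CPM in treated libraries. The groups overlapped and the coefficients of variation, 13.2% and 10.9%, were among the widest of the members. The log2 fold change was -0.02 with a 95% interval from -0.19 to 0.16 (FDR 0.884 in edgeR), so changes within that interval could not be resolved.

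Scap, at chr9:110333288-110384950, encodes the escort and sterol sensor of the SREBPs. Its level was 125, 123, 122 and 121 CPM in untreated and 243, 246, 266 and 258 CPM in treated libraries. Every treated library was far above every untreated library, and the log2 fold change of 1.04 (SE 0.043, FDR 5.83e-128 in edgeR) was the highest of the 34 genes. Insig1, at chr5:28071363-28078662, encodes a retention protein of the endoplasmic reticulum and is itself an SREBP target. It was at 59.9, 56.6, 59.4 and 63.1 CPM in untreated and 21.8, 23.7, 23.7 and 25.0 CPM in treated libraries. The treated mean was 39.4% of the untreated mean, a log2 fold change of -1.34 (SE 0.060, FDR 2.90e-111 in edgeR). Insig2, its homologue, was lower by less, at 60.5, 59.9, 60.7 and 62.3 CPM against 46.6, 48.4, 48.8 and 48.8 CPM, with a log2 fold change of -0.34 (SE 0.047). Stard4, a carrier that moves cholesterol between membranes, fell from 112 ± 4.69 to 54.4 ± 0.817 CPM, for a log2 fold change of -1.04 (SE 0.048, FDR 8.76e-105 in edgeR).

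Among the fatty acid genes the synthase Fasn rose, while the elongase Elovl6 and the desaturases Scd1, Scd2, Fads1 and Fads2 fell. Of these 10 genes, 7 were lower and 2 were higher at an FDR under 0.05, with a median log2 fold change of -0.35, and 3 were lower past the test against 1.5-fold. The shares over all genes tested were 38.0% lower and 37.6% higher, and 10.6% lower past 1.5-fold. The 3 genes that supply acetyl-CoA and NADPH had log2 fold changes between -0.27 and 0.23. Acly, which makes cytosolic acetyl-CoA from citrate, was at 241 ± 9.30 and 200.1 ± 4.37 CPM, which is a log2 fold change of -0.27 (SE 0.042). Acss2, which makes it from acetate, was at 12.6 ± 0.357 and 14.8 ± 0.880 CPM, for a log2 fold change of 0.23 (SE 0.077, FDR 0.00493 in edgeR). Its FDR was 0.0511 when libraries were scaled by total counts alone. Me1, the malic enzyme that yields NADPH, was at 61.8, 61.7, 67.6 and 64.9 CPM in untreated and at 64.4, 62.0, 64.9 and 63.9 CPM in treated libraries. These groups overlapped, and the 95% interval of the log2 fold change, from -0.10 to 0.09, left room only for small changes.

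Fasn, at chr11:120805846-120824547, encodes the synthase that builds palmitate. It was at 182, 164, 175 and 162 CPM in untreated and at 244, 222, 224 and 225 CPM in treated libraries. The groups were apart, with a log2 fold change of 0.42 (SE 0.049, FDR 9.57e-17 in edgeR) that did not pass the test against 1.5-fold. Acaca, the carboxylase that makes malonyl-CoA for Fasn, was lower, at 50.8, 51.6, 47.4 and 49.7 CPM against 41.5, 37.0, 39.5 and 39.1 CPM. Its log2 fold change was -0.35 (SE 0.054, FDR 4.37e-10 in edgeR), opposite in sign to that of Fasn. Elovl6, which lengthens the product of Fasn, fell from 23.5 ± 1.05 to 13.4 ± 0.523 CPM, which is a log2 fold change of -0.81 (SE 0.069) that passed the test against 1.5-fold with an FDR of 6.13e-04 in edgeR.

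The 4 desaturase genes among the members were lower after TGFβ1. Scd1 and Scd2, which place the first double bond, lie near each other on chromosome 19, at chr19:44394455-44407879 and chr19:44293674-44306864. Scd1 was at 201, 200.5, 183 and 205 CPM in untreated and 98.5, 89.1, 95.7 and 94.9 CPM in treated libraries, a log2 fold change of -1.06 (SE 0.050, FDR 2.22e-99 in edgeR). Scd2 was at 965, 920, 873 and 949 CPM in untreated and 770, 711, 693 and 726 CPM in treated libraries, a log2 fold change of -0.35 (SE 0.047, FDR 1.01e-13 in edgeR). Both were lower in every treated library, and Scd1 was lower by the larger factor. Fads1 and Fads2 make polyunsaturated fatty acids and also lie near each other, at chr19:10182888-10196877 and chr19:10062765-10101746. Fads1 was at 527, 552, 499 and 498 CPM in untreated and 263, 262, 262 and 257 CPM in treated libraries, a log2 fold change of -0.99 (SE 0.044, FDR 1.97e-111 in edgeR). Fads2 was at 264, 261, 254 and 264 CPM in untreated and 167, 165, 172 and 169 CPM in treated libraries, a log2 fold change of -0.63 (SE 0.038), with an FDR of 0.132 in edgeR's test against 1.5-fold.

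Ratios of related genes within a library do not depend on how libraries are scaled, and 4 pairs were compared with an exact two-sided permutation test over the libraries. The ratio of Insig1 to Insig2 was 0.991, 0.946, 0.979 and 1.01 in untreated and 0.468, 0.488, 0.485 and 0.513 in treated libraries, so the ratio was near 1 without TGFβ1 and well below it in every treated library. The ratio of Srebf1 to Srebf2 was 0.637, 0.624, 0.622 and 0.563 in untreated and 1.19, 1.21, 1.24 and 1.25 in treated libraries. Per kilobase of exon, Srebf1 was at 22.1 and Srebf2 at 28.3 CPM per kb in untreated cells, and they were at 21.9 and 14.01 CPM per kb after TGFβ1. The ratio of Scd1 to Scd2 was 0.208, 0.218, 0.209 and 0.216 in untreated and 0.128, 0.1254, 0.138 and 0.131 in treated libraries. The ratio of Fads1 to Fads2 was 2.00, 2.12, 1.96 and 1.89 in untreated and 1.58, 1.59, 1.52 and 1.52 in treated libraries. The mean log2 ratios differed by -1.01 for Insig1/Insig2, 1.00 for Srebf1/Srebf2, -0.71 for Scd1/Scd2 and -0.36 for Fads1/Fads2. Each pair gave an exact permutation p of 0.0286, also after Benjamini-Hochberg adjustment over the 4 pairs, which is the smallest p that 4 against 4 libraries allow. Any ratio whose groups lie fully apart gives this p, and 69.8% of all single genes tested had groups that did not overlap. The share of other gene pairs that would reach it was not determined. The pairs came from members chosen with earlier results of these data known, so the p-values do not set these pairs apart from other genes.

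**Figure D3:**
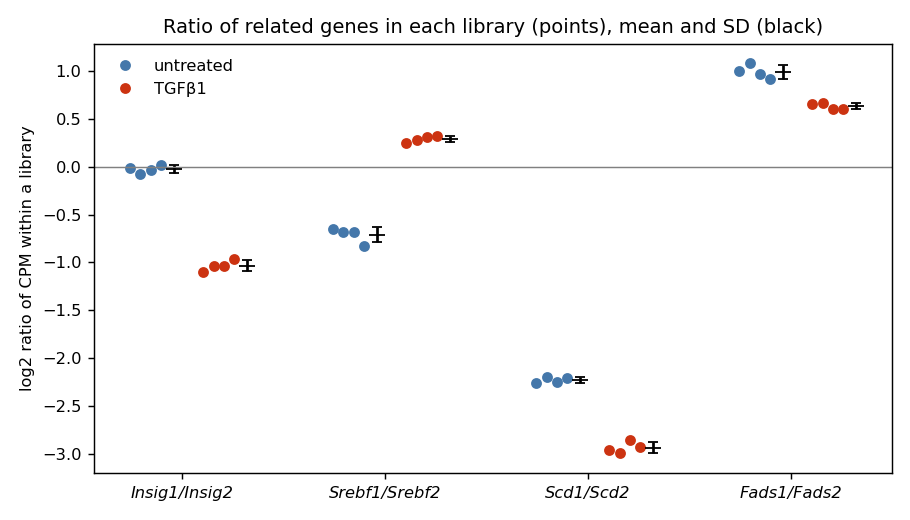
Log2 ratio of CPM of 2 related genes within each library, with points for the 4 untreated and 4 TGFβ1-treated libraries and black marks for the mean and SD. No pair of groups overlaps. The Srebf1/Srebf2 ratio crosses 0, from 0.563 to 0.637 on the linear scale in untreated cells to 1.19 to 1.25 in treated cells.

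To compare levels between genes, CPM was divided by the summed length of a gene's exons in kilobases. On this scale 3 desaturases led the members in untreated cells, with 169.5 CPM per kb for Scd2, 107.8 for Fads1 and 79.1 for Fads2, followed by Acly at 45.6, Scd1 at 40.3, Cyp51 at 38.4 and Hmgcs1 at 31.6 CPM per kb. The SDs of Acly, Scd1 and Cyp51 were 1.76, 2.03 and 1.35 CPM per kb, so Scd1 and Cyp51 were about as far apart as their spread. After TGFβ1 the same 3 desaturases led at 132.6, 54.3 and 51.1 CPM per kb, and Fads1 and Fads2 had come close to each other. Acly followed at 37.9 ± 0.828 CPM per kb, ahead of Scap, which had been at 16.5 CPM per kb in untreated cells. The lowest levels in untreated cells were those of Acss2 at 1.24, Tm7sf2 at 1.55 and Fdps at 1.64 CPM per kb. The SDs of the last pair, 0.254 and 0.270 CPM per kb, exceeded the difference between them. This scale counts every annotated exon, 10.16 kb for Acss2. It takes no account of 75-base stretches shared with other genes on the same strand, 23.5% for Fdps and 8.83% for Tm7sf2. The order of these low genes is therefore uncertain.

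Genes around the pathway were counted in lists of other sterol and isoprenoid genes, other fatty acid genes, glycerolipid genes and genes of fatty acid oxidation. Among all 13818 genes tested, 38.0% were lower and 37.6% higher at an FDR under 0.05. Past the test against 1.5-fold these shares were 10.6% and 14.5%. Of 21 other sterol and isoprenoid genes, all tested, 11 were lower and 4 higher, with a median log2 fold change of -0.29, and 4 were lower past the test against 1.5-fold. Lbr, which encodes a sterol reductase and lamin receptor with the same activity as Tm7sf2, fell from 143 ± 2.64 to 72.8 ± 1.83 CPM, for a log2 fold change of -0.97. Coq2, which acts in ubiquinone synthesis, fell from 30.8 ± 1.63 to 18.7 ± 0.868 CPM, which is a log2 fold change of -0.73. Nr1h3, the sterol-activated receptor LXRα, was at 0.504 ± 0.155 and 0.882 ± 0.177 CPM, for a log2 fold change of 0.80 on 6 to 28 counts per library (FDR 0.00582 in edgeR, and 0.274 in the test against 1.5-fold).

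Of 30 other fatty acid genes, 25 were tested, 15 were lower and 4 were higher, with a median log2 fold change of -0.29, and 5 were lower past the test against 1.5-fold. For this list and the glycerolipid list, the shares over all genes tested were 38.0% lower and 37.6% higher. Past 1.5-fold they were 10.6% lower and 14.5% higher. Mid1ip1, an activator of acetyl-CoA carboxylase, fell from 136 ± 14.9 to 60.6 ± 6.21 CPM, which is a log2 fold change of -1.16. The acyl-CoA synthetases Acsl1 and Acsl3 also fell. Acsl1 was at 57.3 ± 2.76 and 27.5 ± 1.13 CPM (log2 fold change -1.06), and Acsl3 was at 66.6 ± 1.41 and 33.4 ± 1.30 CPM (log2 fold change -0.996). The other elongases and desaturases on the list, named after their values were seen, did not all fall. The elongases Elovl5 and Elovl7 were lower (log2 fold changes -0.62 and -0.44), and Elovl1 and Elovl4 were higher (0.24 and 0.33). Fads3 was at 129 ± 2.21 and 133 ± 1.01 CPM with overlapping groups, a log2 fold change of 0.05 (FDR 0.263 in edgeR). Fads6 had a log2 fold change of -0.86 on 4 to 38 counts per library (FDR 0.0103 in edgeR) with overlapping groups, and Elovl3, Scd3 and Scd4 had too few counts to be tested. The lists of lipid storage and breakdown were centred closer to all genes. Of 14 tested glycerolipid genes, 7 were lower and 4 higher, with a median of -0.15, and past the test against 1.5-fold 4 were higher and 1 was lower. Plin2, which coats lipid droplets, rose from 55.2 ± 3.53 to 140 ± 5.75 CPM, for a log2 fold change of 1.34. Plin3, of the same family and named after its values were seen, fell from 98.8 ± 2.87 to 47.5 ± 1.88 CPM (log2 fold change -1.05). Lpin1, a phosphatidate phosphatase, rose from 33.1 ± 5.12 to 78.3 ± 3.00 CPM, which is a log2 fold change of 1.24, and Lpin3, of the same family, had 4 to 5 counts per untreated and 40 to 55 per treated library (FDR 1.27e-32 in edgeR).

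Of 19 tested genes of fatty acid oxidation, 6 were higher and 6 lower, with a median log2 fold change of 0.01, and past the test against 1.5-fold 4 were higher and 1 was lower. The shares over all genes tested were 37.6% higher and 38.0% lower, and 14.5% and 10.6% past 1.5-fold. Cpt1a, the enzyme that commits fatty acids to mitochondrial oxidation, was at 92.4, 101, 103 and 104 CPM in untreated and at 270.2, 285, 261 and 258 CPM in treated libraries, a log2 fold change of 1.42 (SE 0.050, FDR 2.49e-175 in edgeR). Its homologue Cpt1c rose from 72.7 ± 3.66 to 187 ± 4.53 CPM, for a log2 fold change of 1.36. Ppargc1b, a coactivator, fell from 0.891 ± 0.235 to 0.336 ± 0.100 CPM on 4 to 25 counts per library.

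**Figure D4:**
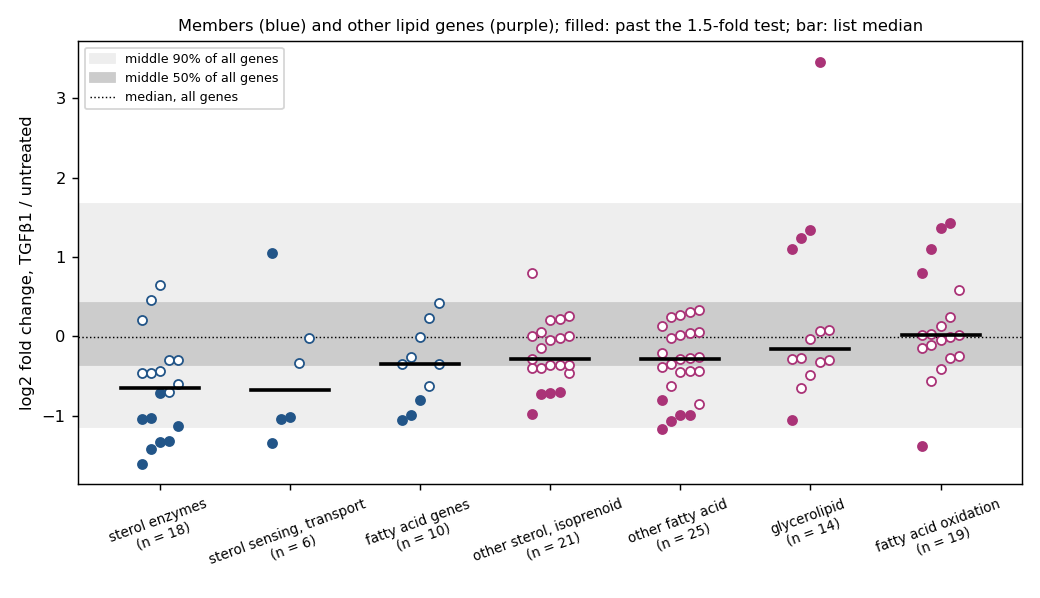
Log2 fold change of each tested gene in the 3 groups of members (blue) and in 4 lists of other lipid genes (purple), with bars for the medians and grey bands for the 5th to 95th and 25th to 75th percentiles of all 13818 genes tested. The medians run from -0.68 for sterol sensing and transport to 0.01 for fatty acid oxidation.

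Other measurements moved between the groups along with these genes. The shares over all genes tested, 38.0% lower and 37.6% higher at an FDR under 0.05, apply to the counts below. All 8 genes of a proliferation list were lower after TGFβ1, with a median log2 fold change of -1.37, and their summed level was 2697 to 2815 CPM in untreated libraries and 1239 to 1296 CPM in treated libraries. Of 8 fibroblast and mural markers, 6 were tested, 4 were higher and 2 were lower, and the sum was 512 to 554 CPM in untreated and 229 to 259 CPM in treated libraries. Most of this sum was Dcn, with means of 312 and 83.0 CPM, and Pdgfra, with means of 160 and 57.8 CPM. Both fell, while Pdgfrb, Cspg4, Myh11 and Des rose. Of 6 immune markers, 2 were tested and both were higher, with sums of 6.02 to 8.25 and 16.2 to 18.5 CPM, while Adgre1 stayed at 0. Most of the immune sum was Cd68, with means of 6.96 and 15.9 CPM. Ptprc, Cd3e and Cd79a had at most 1, 1 and 2 counts in any library. The endothelial sum was 19.5 to 22.2 and 29.7 to 33.0 CPM with 2 of 4 tested markers higher and 1 lower, and the lymphatic sum was 344 to 381 and 337 to 348 CPM with 1 of 2 higher and 1 lower. Pdpn, with means of 342 and 313 CPM, made up most of the lymphatic sum. Of 6 epithelial markers, 3 were tested and 2 were higher, with sums of 34.2 to 40.7 and 38.1 to 45.2 CPM. Most of the epithelial sum was Krt14, with means of 37.1 and 38.8 CPM and overlapping groups. The part of these genes in the changes of the lipid genes was not tested. Markers of cell types known for strong lipid synthesis were at or near 0. The 6 adipocyte markers summed to 0.480 to 1.35 CPM in untreated and 1.01 to 1.41 CPM in treated libraries, with Adipoq and Cidec at 0, and none of the 4 hepatocyte markers had enough counts to be tested, with Ttr and Serpina1a at 0.

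Some members share sequence with other genes, so their counts are less certain. In GENCODE M21 on GRCm38, 33.9% of the 75-base stretches of Acat2 also occurred in Acat3, which was at 0.893 and 0.624 CPM in the 2 groups. For Acaca the shared portion was 26.2%, with Gm5182 at 2.38 and 2.14 CPM. For Fdps it was 21.9% with Gm43738, which was at 0 CPM, and 7.47% with Gm3571, which was at 0.592 and 0.210 CPM. Idi1 shared 16.7% with Gm13502, Me1 shared 13.9% with Gm7049, and Tm7sf2 shared 8.83% with Vps51. Scd1 and Scd2 shared 1.62% of the stretches of Scd1. Fdft1 overlaps Ctsb on the opposite strand over 16.6% of its stretches, and Ctsb moved the other way, from 691 to 884 CPM. Acat2 overlaps Tcp1 on the opposite strand over 9.19% of its stretches, with Tcp1 at 488 and 408 CPM. The libraries were stranded, and whether counting used strand is not given in the sources used here.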

How the data were processed

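Poly(A) RNA of 4 untreated and 4 TGFβ1-treated SV-LEC samples was sequenced from stranded libraries with single-end reads of 75 bases. The authors aligned reads to GRCm38 and deposited raw read counts for 55471 genes, without normalization. The submitters' processing notes name bcl2fastq 2.20.0.422, STAR 2.7.3a and featureCounts 1.5.1. The annotation release and the strand setting are not given in the sources used here. All 8 columns of counts were mapped to groups by the labels.

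The whole table was fitted with edgeR 4.0.16 (R 4.3.3): filterByExpr, TMM, estimateDisp, glmFit and glmLRT (the test named in the study's Methods), edgeR's default prior count, Benjamini-Hochberg FDR over 13818 genes tested and a threshold of 0.05, with glmTreat at a fold of 1.5 on the same fit. The common biological coefficient of variation was 0.0523. Standard errors came from the information of the negative binomial fit, and 95% intervals assume normal errors. CPM used TMM-normalized library sizes, on which 3 counts equal 0.113 to 0.162 CPM, a floor that covers counting error only. Ratios were tested in SciPy 1.17.1. The scripts were tested on simulated data. Exon lengths, positions and shared stretches came from GENCODE M21, and promoters from RefSeq on GRCm38.p6.

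The members and gene lists were chosen with earlier results of these data known. All members were named, with the 3 tested genes of largest absolute log2 fold change from each list of other pathway genes, and markers as lists. A few further genes of these lists were named after their values were seen. 1 gene of the oxidation list was not analysed here. Alternatives were the quasi-likelihood test, DESeq2 1.42.0, its size factors in edgeR, total counts only, no low-count filter, a minimum of 1 CPM in 4 or more libraries, a prior count of 2, an FDR of 0.01, folds of 1.2 and 2, a replicate block, a pseudocount of 1 CPM for ratios, and each library left out in turn.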

Additional observations from a re-analysis of the deposited data

Results flagged for a closer look

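Each member and each ratio was checked in both groups for a library that stood far from the other 3, and 9 of 76 groups had one, where chance alone gives about 1 in 20. In untreated libraries, Idi1 had a lowest value of 6.95 CPM against 8.19 for the next, Lss had a lowest value of 52.0 CPM against 55.6, Sqle had a highest value of 65.0 CPM against 61.7, Stard4 had a highest value of 119 CPM against 110.2, and Acss2 had a highest value of 13.2 CPM against 12.5. In TGFβ1-treated libraries, Tm7sf2 had a lowest value of 4.11 CPM against 4.58, Dhcr7 had a lowest value of 21.5 CPM against 24.1, Insig2 had a lowest value of 46.6 CPM against 48.4, and Fasn had a highest value of 244 CPM against 225. In these 9 genes every treated library was still on the same side of every untreated library.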

How the results depend on the processing

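In 16 alternative fits of each of the 34 genes, 534 of 544 values kept their direction and their side of an FDR of 0.05, and 31 genes did so in all fits. The exceptions were Me1 and Srebf1, which passed no test and changed sign, and Acss2 (log2 fold change 0.16, FDR 0.0511 with total counts only). Me1 was at 0.00458 in DESeq2 and with its size factors, and at 0.0105 with the 1 CPM filter. Leaving out 1 library moved Me1 between -0.0248 and 0.0233 and moved Srebf1 between -0.0863 and 0.0616. The counts of 26 lower and 6 higher genes stayed the same in each of these leave-one-out fits. The medians moved to -0.72 for sterol enzymes and -0.42 for fatty acid genes with total counts only, under which the median of all genes was -0.07, and to between -0.71 and -0.59 and between -0.38 and -0.33 without 1 library. Past the fold test, 23 genes were lower and 4 higher at 1.2-fold (23.8% and 25.9% of all genes tested). At 2-fold 6 were lower and 0 higher (4.40% and 7.83%), where edgeR's likelihood ratio test without a fold bound gave 26 and 6 (38.0% and 37.6%). Without 1 library 13 to 15 were lower, as Nsdhl was lost without replicate 4 of either group and Idi1 gained without TGFβ1 replicate 3 (FDR 0.0455), while Fads2 passed with total counts only (FDR 0.00146). Without 1 library the mean log2 ratios differed by -1.03 to -0.99 for Insig1/Insig2, 0.96 to 1.02 for Srebf1/Srebf2, -0.73 to -0.69 for Scd1/Scd2 and -0.38 to -0.33 for Fads1/Fads2, each with an adjusted exact permutation p of 0.0571, the smallest that 3 against 4 libraries allow. Without the low-count filter 27709 genes were tested, of which 20.8% were lower and 23.0% higher. Libraries with the same number did not deviate together (correlations -0.193 to -0.0336). Those with different numbers ran from -0.227 to 0.250, so these values cannot decide whether the samples were paired. With the replicate block 26 genes were lower, 6 were higher, 14 and 1 passed the fold test, and the medians were -0.66 and -0.35. Technical replicates of 1 line, counts of 36 to 61 for Fdps in treated libraries and an unstated strand setting limit these results.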
